A study of Mus musculus with 8 samples.

Results

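The genes described here are 7 transcription factor genes of the T lineage, Bcl11b, Tcf7, Lef1, Gata3, Tox, Satb1 and Ets1, in resting B cells and naive T cells of the mouse spleen. They were chosen by name, with earlier results of these data known, and they are 7 of the 53843 genes of the GENCODE M21 annotation (build GRCm38) on the 19 autosomes and X. Each locus was the gene with 10 kb to either side. Whole-genome bisulfite sequencing had been done on 8 samples, 2 in each of 4 groups, and both samples of a group shared 1 file, so that each group gave 1 measurement. The groups were B and T cells of females and of males, from spleens of C57BL/6J mice aged 6 to 8 weeks, with no gene altered and no treatment. The B cells were CD43- and the T cells CD4+ CD62L+ and naive by their surface markers, and each sample pooled several animals. Bisulfite reads 5-methylcytosine and 5-hydroxymethylcytosine alike, so that the methylation level given here is the percent of reads in which a CpG carried either.

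These factors establish and hold T cell identity. Tcf7 (TCF-1) and Lef1 are closely related HMG-box proteins that act with beta-catenin in Wnt signalling and are needed from the first steps of T cell development. Bcl11b is a zinc finger protein that closes off other fates at T lineage commitment. Gata3 is required in early T precursors and for the CD4 lineage, and Tox is an HMG-box protein needed for CD4 T cells to form. Satb1 is a DNA-binding organiser of chromatin that is abundant in thymocytes, and Ets1 is an ETS-family factor that B cells use as well. In most tissues CpG-rich gene starts are unmethylated and the rest of a gene is methylated. An unmethylated stretch at a start is called a valley here. It was the longest run of CpGs, overlapping the 1 kb to either side of the start, with a level under 20% over 7 neighbouring CpGs, joined across gaps of up to 500 bp.

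The mean coverage per autosomal CpG was 14.6 reads in female B, 17.7 in female T, 16.1 in male B and 17.3 in male T cells. Where 4 levels are given in a row below, they stand in this order. Of the autosomal CpGs, 18216084 had at least 5 reads in all 4 files. The promoters of marker genes followed the labels. Of 12 T cell marker promoters 10 were called lower in T, and of 8 B cell marker promoters 7 were called higher in T. Of all promoters tested 1.59 percent were called in either direction. The 12 markers of myeloid, NK and erythroid cells gave no called promoter, although that of Lyz2, the lysozyme of myeloid cells, came near a call at 41.5%, 64.1%, 50.7% and 66.7%, 19.3 points higher in T (adjusted p = 0.0121). Their median levels were 49.9%, 58.1%, 53.9% and 62.2% for the myeloid, 78.7%, 85.9%, 81.9% and 80.8% for the NK and 25.2%, 28.3%, 24.3% and 30.6% for the erythroid markers, and the part of other cell types in the results below was not tested. An intermediate level in sorted cells can come from a share of the cells or of the alleles, which cannot be told apart.

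Sequences chosen to show the contrast in both directions are given first. They are 200 bp stretches of the GRCm38 reference, plus strand, each taken from the called 1 kb window with the clearest difference at its locus and holding the most tested CpGs of that window. The capitals mark the tested CpGs. In the first 3, T cells were the less methylated.
Tcf7 intron, chr11:52279370-52279569: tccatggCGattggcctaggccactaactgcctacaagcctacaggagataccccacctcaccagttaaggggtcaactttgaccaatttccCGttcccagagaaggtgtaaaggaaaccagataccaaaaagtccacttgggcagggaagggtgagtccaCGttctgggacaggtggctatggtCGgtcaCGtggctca
Bcl11b intron, chr12:107926494-107926693: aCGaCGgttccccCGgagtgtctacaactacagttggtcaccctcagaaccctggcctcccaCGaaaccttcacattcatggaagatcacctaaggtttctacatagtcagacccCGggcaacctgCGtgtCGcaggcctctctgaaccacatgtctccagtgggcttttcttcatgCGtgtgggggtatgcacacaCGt
Ets1 intron, chr9:32713803-32714002: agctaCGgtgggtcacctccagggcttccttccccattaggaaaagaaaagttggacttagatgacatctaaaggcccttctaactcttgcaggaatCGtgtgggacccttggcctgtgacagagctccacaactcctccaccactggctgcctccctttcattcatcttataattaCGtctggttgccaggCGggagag
In the next 3, which lie at the same group of loci, T cells were the more methylated.
Bcl11b intron, chr12:107980390-107980589: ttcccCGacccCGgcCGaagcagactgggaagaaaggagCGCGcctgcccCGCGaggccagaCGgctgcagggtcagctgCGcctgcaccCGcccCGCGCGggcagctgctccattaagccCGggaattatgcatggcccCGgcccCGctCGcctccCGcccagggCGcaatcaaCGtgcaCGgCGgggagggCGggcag
upstream of Lef1, intergenic, chr3:131102327-131102526: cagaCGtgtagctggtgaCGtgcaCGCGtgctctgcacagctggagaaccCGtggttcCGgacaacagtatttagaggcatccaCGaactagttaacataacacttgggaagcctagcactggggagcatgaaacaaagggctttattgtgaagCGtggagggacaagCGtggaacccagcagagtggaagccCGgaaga
Ets1 intron, chr9:32652088-32652287: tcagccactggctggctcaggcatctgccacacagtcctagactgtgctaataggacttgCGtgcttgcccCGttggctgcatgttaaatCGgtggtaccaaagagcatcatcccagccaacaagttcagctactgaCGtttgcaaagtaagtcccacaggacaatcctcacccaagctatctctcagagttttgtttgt
The Tcf7 stretch, which starts 3445 bp into the gene and also lies in an intron of the antisense gene A630014C17Rik, had 5 CpGs, and all were over 80% in both B files and under 20% in both T files. Its pooled level was 95.9% in female B and 97.2% in male B cells, from 74 and 109 reads. No methylated read was seen in the T files, 0 of 112 in females and 0 of 107 in males, which allows levels of up to 2.68% and 2.80% (3 reads of the total). The first Bcl11b stretch had 9 CpGs, at 96.5% and 96.9% in the B files and 7.32% and 7.25% in the T files, females first. The first Ets1 stretch went from 86.1% and 80.6% in B to 1.33% and 0% in T cells over 4 CpGs. The last is 0 of 68 reads, which allows up to 4.41%. Only 1 of these 4 CpGs was over 80% in both B files. The stretches lower in T at Satb1 and Tox, not printed, hold 2 and 3 tested CpGs and differed by more than that of Ets1.

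The second Bcl11b stretch is of another kind. It is dense in CpGs, with 23 tested, and all 23 were under 20% in both B files. In T cells they were uneven. Only 2 of the 23 were over 80% in both T files and 2 were under 20% in both, and the pooled T level was 52.6% and 52.4%, against 2.54% and 1.73% in B cells, females first. The second Ets1 stretch had 4 CpGs, all over 80% in both T files, with pooled levels of 99.0% and 98.7% in T against 12.7% and 10.0% in B cells. In the Lef1 stretch the 10 CpGs were at 82.9% and 88.0% in T and at 23.0% and 14.6% in B cells.

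**Figure D1:**
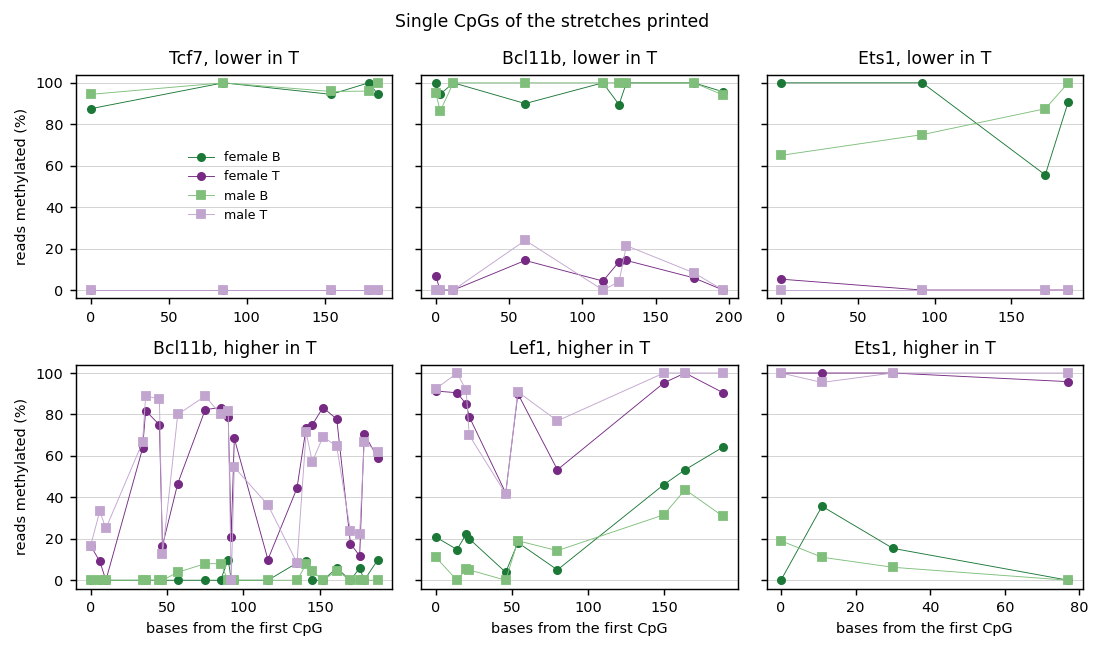
Percent of reads methylated (vertical axis) at each tested CpG of the 6 stretches, by bases from the first CpG (horizontal axis), in the 4 files. The top row shows the stretches lower in T, where the B and T points do not overlap, and the bottom row those higher in T, where the Bcl11b stretch has single CpGs in T cells both over 80% and under 20%. In the Tcf7 panel both T files lie at 0% and the female points are hidden by the male ones.

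Short motifs were searched for on both strands of the 9 such stretches that overlap no exon, 1 for each direction and locus. The TCF or LEF motif CTTTGA was present in the Tcf7 stretch, and 13.9% of the stretches chosen the same way in all 2018320 tested windows held it. The RUNX motif TGTGGT was in the first Bcl11b stretch (13.7% of all stretches). The E box CAGCTG was in 4 of the 9, the Bcl11b and Lef1 stretches higher in T and the Tox and Satb1 stretches lower in T (8.68% of all stretches). Neither the GATA motif AGATAA (10.6%) nor the ETS motif GGAAGT (11.3%) was among the letters of any of the 9. A match describes the letters and is not a measured binding site.

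Across the loci as a whole, T cells were less methylated than B cells over long parts of the genes. Of 881 windows of 1 kb tested at the 7 loci, 311 were called lower in T, 35.3% of them, whereas 1.16 percent of all 2018320 windows tested were called in that direction. Only 8 windows, 0.908% of the 881, were called higher in T, beside 0.913 percent of all windows. A window was called at an adjusted p under 0.05 in a quasi-binomial model with terms for cell type and sex where the mean difference also reached 20 points. The female and the male difference had one sign in all 319 called windows. A mean of 20 points or more leaves little room for opposite signs, so that this is no separate check. The median difference, T minus B, was -6.82 points at the 7 loci and -0.0489 points over all windows. A window held 150 reads per file at the median, and at that depth a level of 50% has a 95% Wilson interval of 42.1% to 57.9%. Intervals and limits cover counting error only. In 219 of the 311 windows both B files were over 80%. In 118 of the 311 both T files were under 20%, and in 177 both lay between 20% and 80%. T cells were thus nearly unmethylated in some of these windows and at an intermediate level in more of them.

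The loci differed in how much of them was involved. The share of windows called lower in T was 57.9% at Lef1 (77 of 133), 56.1% at Satb1 (60 of 107), 52.0% at Tcf7 (26 of 50), 50.9% at Bcl11b (58 of 114) and 41.0% at Ets1 (57 of 139). It was 9.82% at Tox (28 of 285) and 9.43% at Gata3 (5 of 53). Among the 6916 protein-coding genes with 50 or more tested windows the median share was 0.903%. By this share Lef1 ranked 1, Satb1 2, Tcf7 4, Bcl11b 5 and Ets1 8, and Tox and Gata3 ranked 187 and 207. The gene at rank 3 was Cd247, the zeta chain of the T cell receptor complex, with 54.7% (58 of 106). The ranks are a description of the same windows and carry no test.

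**Figure D2:**
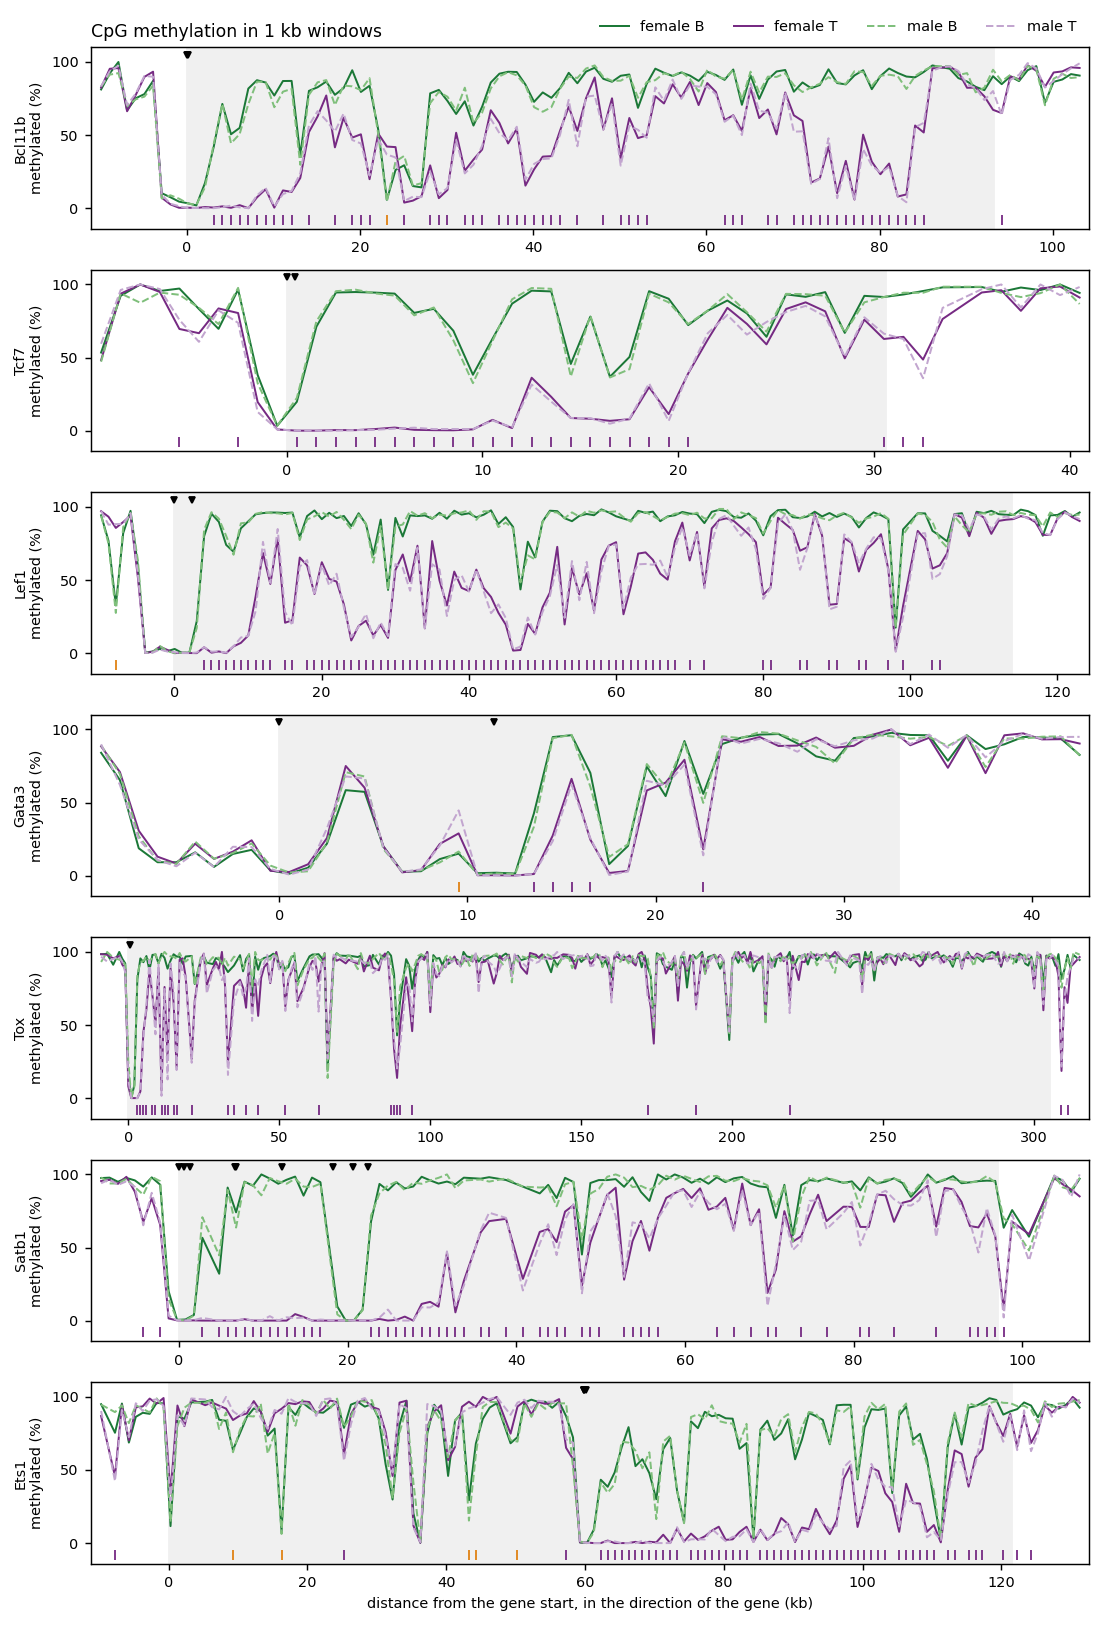
Percent of reads methylated in 1 kb windows (vertical axis) along the 7 loci, by distance in kb from the gene start in the direction of the gene (horizontal axis), in the 4 files. The grey area is the gene, triangles are starts of protein-coding transcripts, and ticks under the lines are called windows, purple for lower and orange for higher in T. The female and male lines of a cell type run together. The T lines lie under the B lines over long parts after the start of Bcl11b, Tcf7, Lef1 and Satb1. They do so after the principal start of Ets1 as well. At the Bcl11b window called higher in T they lie over the B lines.

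**Figure D3:**
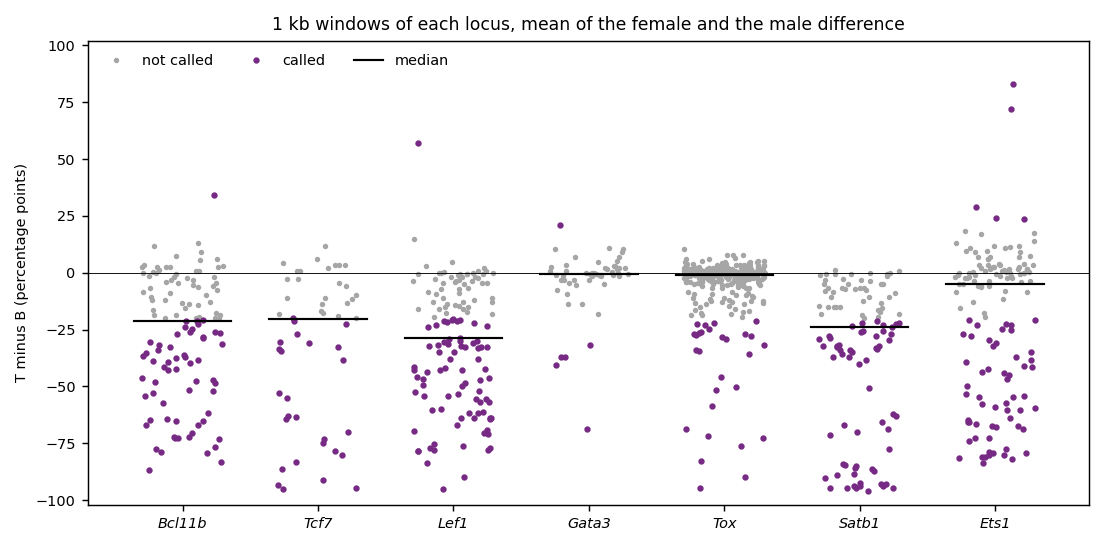
Mean difference T minus B in percentage points (vertical axis) of each tested 1 kb window, by gene (horizontal axis). Purple points were called, grey points were not, and the bar is the median of the locus, from -28.7 at Lef1 to -0.441 at Gata3.

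The promoter, taken as the gene start with 1 kb to either side, did not separate the cell types at the threshold used. None of the 7 promoters was called, beside 1.59 percent of 51815 promoters tested. Of the 7, 4 had an adjusted p under 0.05 with a difference under 20 points, and 5 had an unadjusted p under 0.05, as had 15.5 percent of all promoters. Without each file in turn 2 or 3 of the 4 kept an adjusted p under 0.05, Bcl11b and Tcf7 each time and Tox without the female B file. Fisher's exact test within each sex and limma use the same means and the same 20 points, so that they could call none either. By adjusted p alone, 4 promoters were under 0.05 with Fisher's exact test and 2 with limma. The median difference was -1.09 points over the 7 and -0.108 over all promoters. By contrast 5 of the 7 gene bodies, from 1 kb after the start to the end, were called lower in T, beside 0.625 percent of 33424 bodies called in that direction. Fisher's exact test within each sex called 5 bodies as well, and limma on log2 ratios called none. Fisher's test counts each read as independent and gave an adjusted p of at most 1.56e-26 in all 7 bodies. Its count was thus set by the shared means and the 20 points, and is no separate check. The median body difference was -30.4 points over the 7 and -0.125 over all bodies. None of the 14 flanks of 10 kb was called, beside 0.602 percent of 106499 flanks in the quasi-binomial model. The 3 tests share the same means, all under 20 points in these flanks, so that none could make a call. An unadjusted p under 0.05 was seen in 9 of the 14 and in 20.6 percent of all flanks.

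**Figure D4:**
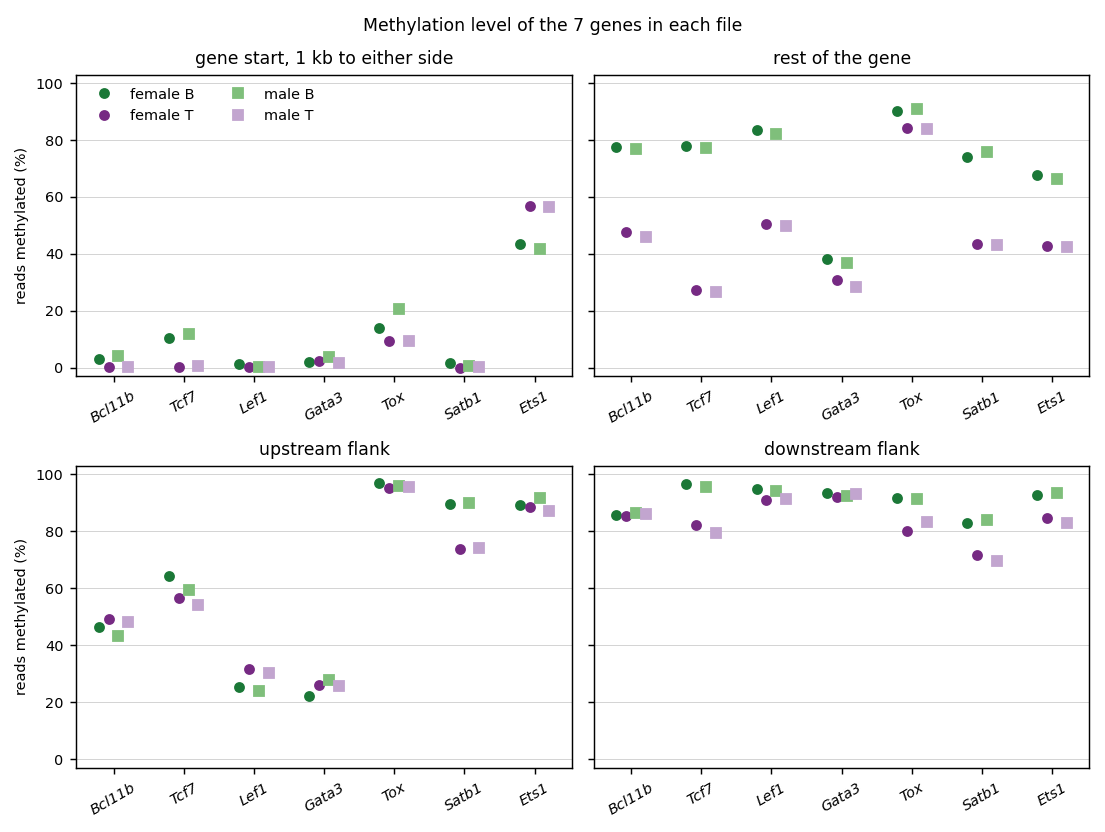
Percent of reads methylated (vertical axis) in the promoter, the rest of the gene and the upstream and downstream flanks of the 7 genes (horizontal axis), 1 point for each file. The B and T points lie far apart in the gene body of Bcl11b, Tcf7, Lef1, Satb1 and Ets1, and close together in most promoters and flanks.

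Tcf7 (chr11:52252371-52283014, minus strand) had the largest body difference of the 7. The body level was 77.9% in female B, 27.2% in female T, 77.1% in male B and 26.8% in male T cells. B and T files were far apart and the sexes close. The difference was -50.5 ± 0.636 points (SE, adjusted p = 2.08e-09), and 0.05% of all bodies had a lower one. At the promoter the levels were 10.6%, 0.455%, 11.8% and 0.499% in the same order, a difference of -10.7 ± 0.580 points (adjusted p = 6.21e-07). It was -1.39 points with 500 bp to either side of the start. At the start of the principal transcript, 443 bp into the gene, the levels were 15.3%, 0%, 14.6% and 0%, where the T counts of 0 allow up to 0.118% and 0.137%. The valley of Tcf7 was 1873 bp wide in female B and 1945 bp in male B cells, and 13272 bp in female T and 13329 bp in male T cells. Its far edge lay 399 and 443 bp past the gene start in the B files, and at 11713 bp in both T files, while the near edge lay between -1615 and -1473 bp from the start in all 4. A run of 21 neighbouring windows was called lower in T, from 14 to 21013 bp past the start, with levels of 65.7% and 64.9% in B and 8.17% and 7.42% in T cells. The run overlaps exons of the antisense gene A630014C17Rik and of the lincRNA Gm26551, and methylation does not tell overlapping genes apart. The clearest window, chr11:52279001-52280000, fell from 94.8% to 0.351% in females and from 96.5% to 0.360% in males.

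Lef1 (chr3:131110471-131224356, plus strand), the relative of Tcf7, had a start free of methylation in both cell types. Its promoter levels were 1.47%, 0.267%, 0.204% and 0.254%, and those of B and T cells overlap. The body was at 83.6%, 50.6%, 82.0% and 49.9%, a difference of -32.5 ± 0.414 points (adjusted p = 2.08e-09). The valley measured 7499 bp in each B file, 14901 bp in female T and 15161 bp in male T cells. The upstream edge was at -4595 bp from the start in all 4 files, and only the downstream edge differed, at 2903 bp in B and at 10305 and 10565 bp in T cells. Past it, a run of 51 windows from 17530 to 68529 bp into the gene was called lower in T, with 90.3% and 89.7% in B and 43.2% and 41.6% in T cells. T cells were thus at an intermediate level in this run, and nearly unmethylated inside the valley. The clearest window, chr3:131115001-131116000, holds coding sequence and was at 95.4%, 0.324%, 96.4% and 0.966%. The antisense gene Gm43352 overlaps the Lef1 start, and the run of 51 windows overlaps an exon of Gm42449. Methylation does not tell overlapping genes apart.

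Bcl11b (chr12:107910403-108003602, minus strand) had promoter levels of 3.23% and 4.04% in the B files and 0.195% and 0.168% in the T files, females first. The difference was -3.45 ± 0.374 points (adjusted p = 8.12e-05). Its body was at 77.5%, 47.6%, 76.9% and 45.9%, a difference of -30.4 ± 0.345 points (adjusted p = 1.66e-09). The valley was 5244 and 5308 bp wide in B and 16133 and 16058 bp in T cells. Again the downstream edge moved, from 2229 bp in both B files to 13134 and 13124 bp in the T files. A 16-window run, 69602 to 85601 bp into the gene, was called lower in T at 30.5% and 28.1% against 88.4% and 87.7% in B cells. It holds the clearest window, chr12:107926001-107927000, from which the first Bcl11b stretch above was taken, at 90.8%, 5.88%, 93.7% and 5.09%.

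Satb1 (chr17:51736187-51833290, minus strand) had the largest difference in valley width. The valley was 3080 bp wide in both B files, and 32084 bp in female T and 32027 bp in male T cells, 10.4 times as wide on average. Of 13610 protein-coding genes with a valley in all 4 files Satb1 ranked 1 by the difference. The body was at 74.2%, 43.5%, 75.8% and 43.1%, a difference of -31.7 ± 0.601 points (adjusted p = 2.50e-08), and the promoter was at most 1.87% in every file. Satb1 has 9 tested starts of protein-coding transcripts, and in T cells all 9 lay inside the valley. Of these, 5 were called lower in T, beside 0.703 percent of 53068 starts, and no start of another member was called. The 5 were 3 without the male T file and 3 with at least 10 reads per CpG. The start 12199 bp into the gene was at 95.1% and 94.4% in B and at 0% (up to 2.48%) and 1.27% in T cells. A pair of neighbouring starts, at 6702 and 6724 bp, share 14 CpGs and went from 82.2% and 76.6% to 0% (up to 1.46%) and 0.442%. The starts at 18286 and 22371 bp differed by -21.9 and -38.7 points. The start at 20610 bp was at most 0.164% in all 4 files, between neighbours that were at 24.0% and 36.3% in female B cells. In T cells it was part of the same valley. The gene Gm6934 overlaps the promoter and the valley of Satb1, and Gm37248 and other annotated genes overlap its body. Methylation does not tell them apart from Satb1.

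Ets1 (chr9:32636221-32757820, plus strand) is annotated with a first start that is not the one of its principal transcript. At this gene start the levels were 43.3%, 56.8%, 41.6% and 56.6%, 14.2 ± 3.34 points higher in T (adjusted p = 0.0339), and the valley was at most 164 bp wide. The same 22 CpGs tested among the valley edge bands had an adjusted p of 0.0914. The difference was 7.40 points with 500 bp to either side of the start (adjusted p = 0.183) and 10.1 points with at least 10 reads per CpG (adjusted p = 0.148), and without each file in turn the adjusted p was between 0.17 and 0.235. The principal start lies 59801 bp further in. There the 4 levels were 0.217%, 0.451%, 0.565% and 0.306%, and B and T overlapped. From that start the valley ran 2575 and 2629 bp in the B files and 29608 bp in both T files, and by this measure Ets1 ranked 2 of 13788 genes, after Satb1. The upstream edge stood at -878 bp from the principal start in all 4 files, and the downstream edge at 1696 and 1750 bp in B and at 28729 bp in T cells. The body of the gene, which takes in the sequence before the principal start as well, was at 67.8%, 42.9%, 66.5% and 42.4%, a difference of -24.5 ± 0.456 points (adjusted p = 2.23e-08). From 61780 to 73779 bp, 12 windows had 1.44% and 1.12% in T against 50.7% and 49.4% in B cells. This run overlaps an exon of the antisense gene Gm27240, which methylation does not tell apart from Ets1. Further in, from 84780 to 103779 bp, 19 windows had 21.3% and 20.9% against 81.3% and 82.8%.

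Tox (chr4:6686353-6991557, minus strand) is the longest of the 7 genes, and its body stayed highly methylated. The body was at 90.4%, 84.2%, 91.0% and 84.0%, a difference of -6.63 ± 0.289 points, past the test (adjusted p = 1.71e-06) and under the 20 points of a call. Its valley was 2103 and 2116 bp wide in B and 4395 and 4714 bp in T cells, again by the downstream edge, and Tox ranked 77 for this difference. At the principal start, 758 bp into the gene, the levels were 2.84%, 0.479%, 5.99% and 0.852%. The difference there was -3.75 ± 0.551 points (adjusted p = 0.000528). The promoter at the gene start was at 13.9%, 9.33%, 20.6% and 9.44%, with the T files below both B files. Its difference of -7.88 points (adjusted p = 0.0105) was -4.56 without the male B file (adjusted p = 0.352) and -3.46 as a mean over CpGs, and limma gave an adjusted p of 0.224. Of its 28 called windows, 4 neighbours lay from 2557 to 6556 bp into the gene, at 93.5% in both B files and at 34.9% and 30.2% in T cells. Another 4 lay 86557 to 90556 bp in, at 65.7% and 62.6% against 28.4% and 33.6%. The clearest, chr4:6980001-6981000 in an intron, rests on 5 CpGs and was at 98.7%, 5.33%, 97.1% and 1.54%. The antisense gene Gm11802 overlaps the Tox body.

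Gata3 (chr2:9857078-9890034, minus strand) differed from the others in that its body had a lower level in B cells too. That body holds the principal start with its own valley. It overlaps the antisense gene Gm13256 and the protein-coding genes 4930412O13Rik and 9230102O04Rik. The last also overlaps the promoter and the valley at the gene start, and methylation does not tell overlapping genes apart. The Gata3 body was at 38.2%, 30.9%, 36.8% and 28.3%, a difference of -7.85 ± 0.612 points (adjusted p = 3.88e-05) that was under the threshold of a call. The valley at the gene start was 3405 bp in both female files, 3283 bp in male B and 3280 bp in male T cells. The mean difference of -1.5 bp held only for some definitions of a valley, and was -743.5 bp with levels over 5 CpGs, -1645 bp over 11 CpGs and -477.5 bp at a threshold of 30%. At the principal start, 11434 bp into the gene, it was 7734 bp in female B, 4633 bp in female T, 3766 bp in male B and 4259 bp in male T cells, so that the direction was not the same in both sexes. The part of it found only in female B cells, 4102 bp with 175 CpGs, was at 5.57% in male B and 10.4% in male T cells, both under the 20% that defines a valley. Downstream of the principal start the valley ended at 1757 and 1833 bp in the B files and at 2758 bp in both T files. The part found only in female T cells, 1001 bp with 18 CpGs, was at 63.1% in male B and 1.23% in male T cells. A run of 4 windows, from 13034 to 17033 bp into the gene, was called lower in T, at 80.4% and 74.4% in B and 34.8% and 32.1% in T cells. The clearest of them, chr2:9875001-9876000, holds exon sequence and went from 94.8% to 27.4% in females and from 94.0% to 23.6% in males.

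**Figure D5:**
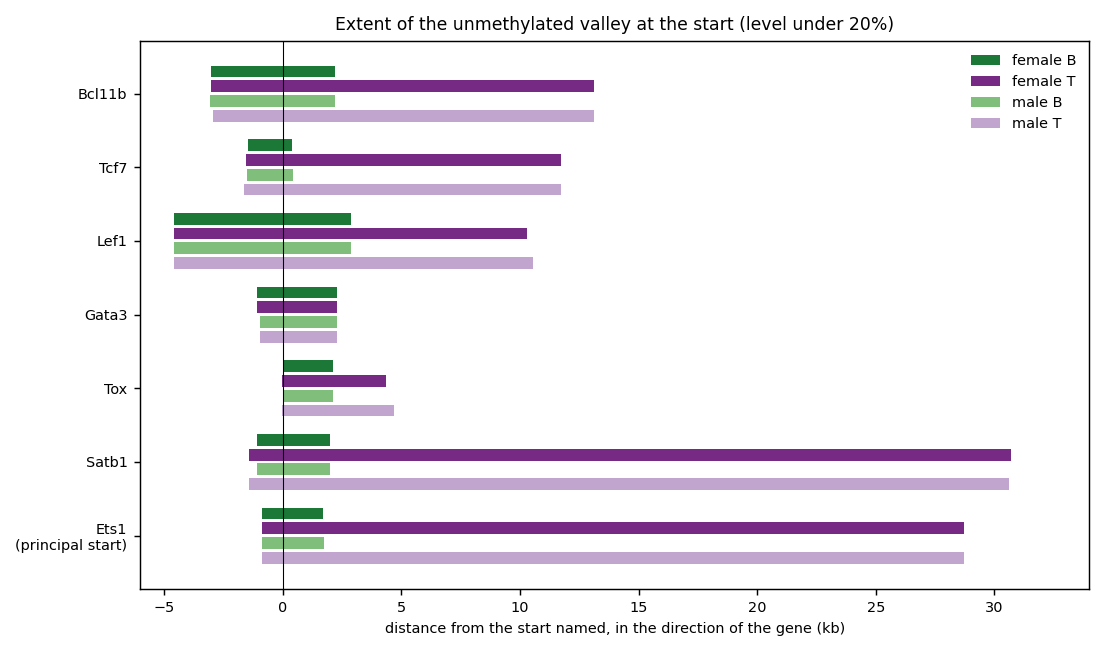
Extent of the unmethylated valley in kb from the start (horizontal axis) in each of the 4 files, at the gene start of 6 genes and at the principal start of Ets1. The downstream edges of the T files lie farther into the gene, except at the gene start of Gata3, and the upstream edges lie closer together, with those of Satb1 at -1091 bp in B and -1400 bp in T cells.

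Over all 13610 protein-coding genes with a valley in every file the median width difference was 0 bp, the 5th and 95th percentiles were -267.8 and 346.8 bp, and 97 genes (0.713%) were 2000 bp or more wider in T. Bcl11b, Tcf7, Lef1, Tox and Satb1 were among these 97 and ranked 6, 3, 8, 77 and 1. With 2 files against 2 no permutation test can go under p = 0.333, and the widths carry no test. To read the added sequence in files that had not defined it, the valley was found in female T cells and its level was measured in males. The sequence inside the female T valley and outside the female B valley was at 62.3% in male B and 4.23% in male T cells at Bcl11b, 72.2% and 1.09% at Tcf7, and 84.9% and 4.32% at Lef1. It was 59.7% and 1.63% at Tox, 56.8% and 1.57% at Satb1, and 59.3% and 3.03% at Ets1 from the principal start. At Gata3, from the principal start, the shorter stretch was at 63.1% and 1.23%, as given above. In all 7 genes the male files thus split by cell type over the stretch found only in the female T valley. At Gata3 and Ets1 this stretch was seen from the principal start and not from the gene start. At Gata3 the stretch found only in the female B valley stayed low in both male files, at 5.57% in B and 10.4% in T. The stretch found only in the female T valley was less dense in CpGs at Tox, with 7.42 per kb, than at Bcl11b, with 16.8 per kb.

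Bands of 1 kb to either side of the valley edges, with the edges set on the reads of all 4 files together, gave no called band among 14, beside 1.27 percent of 36925 bands. The pooled edges lay near those of B cells. Most bands were under 20% in B cells, where a fall of 20 points could not occur. Downstream the mean B level was 14.2% at Bcl11b, 17.5% at Tcf7, 9.17% at Lef1, 12.2% at Tox and 12.3% at Satb1. Fisher's exact test and limma use the same means, the largest being -18.6 points, so that they could call none either. Of the 14 bands, 7 had an adjusted p under 0.05 and 10 an unadjusted one, as had 16.4 percent of all bands. Without the female B or the female T file only 1 band, downstream of Tcf7, had an adjusted p under 0.05, and without the male B or the male T file 0 had, where the lowest adjusted p was 0.0793 without male B and 0.0584 without male T cells. The largest differences were at Tcf7, where the upstream band was at 36.5%, 19.1%, 34.1% and 14.2% and the downstream band at 17.6%, 0% (up to 0.116%), 17.3% and 0% (up to 0.135%). The downstream bands of Bcl11b, Tox and Satb1 differed by -13.9 ± 2.12, -12.1 ± 1.88 and -11.9 ± 1.82 points. With at least 10 reads per CpG the band of Bcl11b was at -26.0 and called, as was that of Tcf7 at -20.4, and the band of Satb1 was at -3.92 points. With bands of 500 bp the downstream bands of Bcl11b, Tcf7, Tox and Satb1 were called, at -30.9, -28.4, -20.6 and -44.8 points, and 4 bands were called with a valley threshold of 30%. From the principal start the downstream band of Ets1 was called at -39.3 points, against 11.96 points at the gene start. As a mean over CpGs the upstream band of Tcf7 was at -21.1 points. The absence of a call thus depends on these settings and on the low B level of most bands.

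In the flanks the differences stayed under 20 points. Upstream of Satb1 the level was 89.5%, 73.9%, 90.1% and 74.1%, a difference of -15.8 ± 1.25 points (adjusted p = 6.27e-05) that was -10.5 as a mean over CpGs and -11.0 with at least 10 reads per CpG. Downstream of Satb1 it was 82.8%, 71.7%, 84.1% and 69.6%. The downstream flank of Tcf7, which overlaps the gene Skp1a, was at 96.6%, 82.3%, 95.5% and 79.4% (adjusted p = 0.00087). The downstream flanks of Tox and Ets1 differed by -9.77 ± 1.36 (adjusted p = 0.00759) and -9.25 ± 1.07 points (adjusted p = 0.00322), at Tox by more than the body. In the other direction, the upstream flank of Lef1 was at 25.4%, 31.6%, 24.1% and 30.2%, 6.16 ± 0.874 points higher in T (adjusted p = 0.00187), which was 3.76 points as a mean over CpGs and had an adjusted p of 0.153 with limma. That of Bcl11b was 3.88 ± 1.02 points higher in T (adjusted p = 0.0407), which was 0.661 points as a mean over CpGs and 2.30 without the male B file (adjusted p = 0.45). Its adjusted p was 0.506 with limma and 0.0865 with no sex term.

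The 8 windows called higher in T were at 4 loci, 5 of them at Ets1 and 1 each at Bcl11b, Lef1 and Gata3. All 5 at Ets1 lay between the annotated gene start and the principal start. The one at chr9:32652001-32653000 was at 7.95% in female B and 6.25% in male B cells and at 91.9% and 88.5% in T cells, a difference of 83.1 ± 2.91 points. Another, 43280 bp into the gene, went from 29.2% and 15.4% in B to 96.7% and 92.2% in T cells. The other three, at 9280, 44280 and 50280 bp, were 24.3, 29.0 and 23.8 points higher in T. At Ets1 the windows called higher in T thus lay before the principal start, and most of those called lower in T lay after it. The Lef1 window, chr3:131102001-131103000, has its midpoint at -7970 bp from the gene start and was at 32.7%, 85.7%, 27.5% and 88.3%. The Bcl11b window, chr12:107980001-107981000, holds 66 CpGs and was at 5.72%, 42.1%, 4.44% and 36.7%. The Gata3 window at chr2:9880001-9881000 was at 15.1%, 28.9%, 16.5% and 44.6%, and the 2 T files differed from each other by more than female T from female B cells. Without the male T file its difference was 13.1 points and it was not called.

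Males and females did not differ at these loci by the same rule. None of the 881 windows was called for sex, beside 0.00103 percent of 1950708 autosomal windows. The lowest adjusted p was 0.139, and the largest difference was 13.7 points. An unadjusted p under 0.05 was seen in 51 windows (5.79%), and in 4.73 percent of all autosomal windows. The median gap between the female and the male T minus B difference in a window was between 3.05 points at Lef1 and 4.23 points at Tcf7.

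Among 30 other factors of T cell development and identity, none of the promoters and 3 of the gene bodies were called, all 3 lower in T, where 1.59 percent of all promoters and, in that direction, 0.625 percent of all bodies were called. An unadjusted p under 0.05 was seen in 7 of the 30 promoters and 15.5 percent of all promoters, and in 22 of the 30 bodies and 26.8 percent of all bodies. Of the 30 bodies, 17 had an adjusted p under 0.05. Limma called no promoter and no body of the list, and Fisher's exact test within each sex called no promoter and 3 bodies. Both use the same means and the same 20 points. The 3 bodies called by the quasi-binomial model were those of Zbtb7b, Klf2 and Ikzf1. Zbtb7b (ThPOK), which directs the CD4 fate, was at 46.1%, 22.9%, 44.8% and 20.7%. Klf2, which keeps naive T cells quiescent, was at 29.5%, 4.89%, 23.4% and 5.41%. Ikzf1 (Ikaros) was at 65.2%, 45.3%, 66.2% and 45.5%. The 3 differed by -23.7, -21.3 and -20.3 points, in that order. The median body difference of the 30 was -1.37 points. The list took in genes that B cells use as well, such as Tcf3 (E2A), whose body was at 84.1%, 93.8%, 83.8% and 93.9%, 9.88 points higher in T and under the threshold of a call (adjusted p = 2.22e-06). Runx1, Runx3 and Notch1, which act early in the T lineage, differed by -3.38, -1.56 and -4.17 points in their bodies. The promoter of Runx3 differed by more, at 56.6%, 38.8%, 57.7% and 40.1%, -17.7 points (adjusted p = 0.00083), under the threshold of a call.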

How the data were processed

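The 8 samples, in 4 groups of 2 named by sex and cell type, went through whole-genome bisulfite sequencing. The authors deposited, for each CpG, its level as a fraction (up to 3 decimals) with a count of the reads covering it. Per the deposited values, both strands were merged and every entry had 5 or more reads. The submitters' processing notes name Trim Galore, FastQC, Bismark 0.13.1 and mm10. How duplicates were treated and the conversion rate are not given in the sources used here. The labels of both samples of a group name the same file, while the number in its name is that of 1 of them, so a file may hold 1 sample or merge both. Either way, each file was 1 measurement and the sexes served as replicates of a cell type. Kept duplicates would make counting errors larger than given. P-values rest only on read counts and on the spread between these files, for windows and valley edges as its average over all regions.

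Methylated reads were recovered as fraction times coverage. Positions were raised by 1, and all 18714703 tested then read CG in the GRCm38 reference. CpGs needed 5 reads in all 4 files and regions 3 such CpGs. Reads of a region were pooled, and SE are those of the difference in percentage points. The quasi-binomial logistic model (terms: cell type, sex) left 1 residual degree of freedom. Its dispersion was squeezed across all regions of a kind (limma 3.58.1, R 4.3.3, prior from regions with at least 5 expected methylated and unmethylated reads in every file), followed by F tests with Benjamini-Hochberg adjustment over all regions of that kind. For windows and valley edges the prior degrees of freedom were infinite, so that their p-values rest on the average spread of all regions. The model was tested on simulated data. A call needed both an adjusted p under 0.05 and 20 points or more between the means.

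The members and lists were chosen with earlier results of these data known. Named were all 7 members, for each the called window with the largest difference seen in both sexes in each direction, the called genes of the list of other factors, and genes ranked by share of windows lower in T. The stretches printed and the values for Tcf3, Runx1, Runx3 and Notch1 were chosen after their values were seen. Alternatives changed coverage, window size, thresholds, test, prior, sex term, files used, region bounds and valley definition. The analysis was done in Python 3.11.15 with numpy 2.4.6 and scipy 1.17.1.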

Additional observations from a re-analysis of the deposited data

Results flagged for a closer look

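In 11 regions, of the promoters, bodies, flanks, valley edges, transcript starts and clearest windows, the difference T minus B had opposite signs in females and in males, and the difference between the sexes was not tested. The Lef1 promoter differed by -1.20 points in females and by 0.0508 in males. At Gata3 the promoter differed by 0.359 and -1.80 points, the upstream flank by 3.82 and -2.10, the downstream flank by -1.43 and 0.557, and the upstream edge of the valley by 5.21 and -0.930. The upstream edge of the Bcl11b valley differed by -0.639 points in females and 4.13 in males. The remaining 5 were transcript starts with almost no methylation in any file. The Ets1 starts 59801 and 59828 bp into the gene, which share their CpGs, both differed by 0.234 points in females and -0.259 in males, that at 59900 bp by 0.232 and -0.257, and that at 60163 bp by 0.169 and -0.0667. The Satb1 start at 20610 bp differed by -0.0248 and 0.0830 points. None of the 11 was called between B and T cells, and all had an adjusted p over 0.05.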

How the results depend on the processing

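Each group had 1 file, and depth limits regions of few CpGs, such as the Tox and Satb1 windows of 5 and 3 CpGs. The groups share no replicate numbers, so that no fit with the replicate number as a block was made, and B and T files were paired only by sex, through the sex term and Fisher's test within each sex. The count of windows called at the 7 loci was 319 and lay between 308 and 321 without each file in turn. It was 412 at a threshold of 10 points and 247 at 30, 258 with limma, 240 with the dispersion prior from all windows and 303 with Fisher's exact test. It was 532 of 1399 with windows of 500 bp and 168 of 468 with windows of 2 kb, 38% and 35.9% of those tested against 36.2%. No window was called for sex under any alternative run. The count of called bodies stayed at 5 without each file in turn, and was 0 with limma on log2 ratios and 5 with Fisher's exact test. With limma the adjusted p was 0.1 for each of these 5 bodies, from the -24.5 points of Ets1 to the -50.5 of Tcf7. The cause was not tested. A threshold of 10 points called 2 promoters (Tcf7 lower and Ets1 higher in T), 3 flanks, 5 valley edge bands and, of the 30 other factors, 1 promoter, each count being 0 at 20 points by the quasi-binomial test. These 4 counts stayed at 0 without each file in turn. Valley edge bands called were 2 with at least 10 reads per CpG, 4 with bands of 500 bp, 4 with a valley threshold of 30% and 1 from the principal start, an alternative added after the data were seen. Transcript starts called went from 5 to 3 with at least 10 reads per CpG and to between 3 and 4 without each file, the 3 being without the male T file. Of the 30 other bodies, 3 were called, 1 with at least 10 reads, 0 at a threshold of 30 points or with limma, and between 2 and 3 without each file.

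The median width difference of the 7 valleys was 7532 bp, and between 7402 and 7662 bp without each file. It was 7940.5 bp at a threshold of 30%, 6959 without joining and 10819.5 from the principal start. At a threshold of 10% and with 11 CpGs Ets1 had no width, and the median of the other 6 was 6679.8 and 9128.2 bp. Directions turned in small differences without a file, over ranges of -1.21 to 0.0568 points at the Lef1 promoter, -1.48 to 0.0311 at the Gata3 promoter, -1.94 to 3.66 upstream and -1.02 to 0.151 downstream of Gata3, and -0.199 to 4.48 (Gata3) and -0.0457 to 3.54 (Bcl11b) at the upstream edges. Gata3 upstream was at -0.680 with 10 reads, and Gata3 downstream at 0.215 as a mean over CpGs. From the principal start the Ets1 promoter was at -0.0127 points and the downstream edges at -18.1 (Gata3) and -39.3 (Ets1). The Gata3 window higher in T was not called without the male T file, at 13.1 points, at 30 points, with limma or with the dispersion prior from all windows.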

Other observations

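Single CpGs were also read, with no test. CpGs in which both T files lay at least 50 points under both B files made up 16.3% of those at the 7 loci and 0.386% of all 18714703 tested. They numbered 478 of 2342 at Bcl11b, 206 of 716 at Tcf7, 462 of 2277 at Lef1, 255 of 1309 at Satb1 and 312 of 1465 at Ets1. They numbered 66 of 2134 at Tox and 41 of 939 at Gata3. By this share Tcf7, at 28.8%, came before Ets1 (21.3%), Bcl11b (20.4%), Lef1 (20.3%), Satb1 (19.5%), Gata3 (4.37%) and Tox (3.09%), another order than by windows. CpGs at least 50 points higher in both T files made up 0.492% at the 7 loci and 0.283% of all tested, and numbered 23 at Bcl11b, 22 at Ets1, 5 at Lef1, 4 at Tcf7 and 1 at Tox, and none were seen at Gata3 or Satb1.

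Windows under 20% were more numerous in T cells at 6 of the 7 loci. At Ets1 they numbered 9 and 11 in the B files and 44 and 45 in the T files, at Satb1 7 and 8 against 34 and 35, and at Bcl11b 9 and 9 against 28 and 27, females first. They numbered 8 and 9 against 27 and 25 at Lef1, 2 and 1 against 19 and 20 at Tcf7, and only 4 and 3 against 8 and 9 at Tox. At Gata3 they numbered 19 and 16 in the B files and 16 and 19 in the T files. These are the windows already described, and their share over all windows was not counted.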
